A study of Arabidopsis thaliana with 4 samples.

Results

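The plastid genome of Arabidopsis encodes the core of each thylakoid complex, and the data described here are the array values of those genes in seedlings of the Atdi19-3 mutant and of the wild type. The members were the probe sets that the platform annotation assigns to exactly 1 gene, where that gene lies on the plastid chromosome of the RefSeq annotation and its symbol begins with psa, psb, pet or atp or is rbcL. All 33 such genes in RefSeq had 1 probe set each, so the members numbered 33 of the 22810 probe sets on the arrays, with 15 for photosystem II, 5 for photosystem I, 6 for the cytochrome b6f complex, 6 for the ATP synthase and 1 for Rubisco. Atdi19-3 is a single T-DNA insertion line of AtDi19-3, a gene of the drought-induced Di19 zinc finger family, with the insertion mapped to the fifth exon. Both genotypes were in the Col-0 ecotype and were harvested as untreated seedlings at 10 days of age. Growth was at 22 °C, with a light period of 16 h and a dark period of 8 h, and followed 72 h of stratification. Total RNA (500 ng) of 2 Atdi19-3 samples and of 2 wild-type samples, described by the labels as biological replicates, was labelled with biotin and hybridized to Affymetrix ATH1 arrays. The values are log2 levels after GCRMA, a method that corrects for background and normalizes, and each unit is therefore a doubling.

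Chloroplast genes are read by a plastid-encoded RNA polymerase, which needs nuclear sigma factors, and by nuclear-encoded phage-type polymerases. Most lie in operons whose long transcripts are cut, trimmed and protected by nuclear-encoded RNA-binding proteins, so that neighbouring genes of 1 operon can end up at different RNA levels. The chloroplast supplies the reaction centre proteins, the cytochromes and most ATP synthase subunits, while the nucleus supplies the remaining subunits, including the small subunit of Rubisco. Plastid mRNAs carry no lasting poly(A) tail, and short tails added to them mark them for decay, whereas the labelling protocol starts from the 3' end of the RNA. In RNA from seedlings, fewer green cells or plastids and less RNA per plastid cannot be told apart.

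The arrays of the genotypes differed beyond these genes. The 18 probe sets for spiked-in bacterial and phage transcripts had array medians of 5.92 and 6.20 in Atdi19-3, against 9.69 and 9.41 in the wild type. The difference between the 3' and the 5' control probe sets of actin, GAPDH and ubiquitin was narrower on both Atdi19-3 arrays for 5 of 6 control pairs, at 0.58 to 3.12 in Atdi19-3 and 2.76 to 5.39 in the wild type. Values over 4 made up 14.1% and 13.5% of the tested probe sets in Atdi19-3, against 7.10% and 8.34% in the wild type. These differences split the arrays as the genotype does, so their part in the results below cannot be told apart from that of the mutation. Of the tissue markers listed, 0 of 7 for green tissue and 0 of 9 for dry seed had a single-gene probe set, and the only one of 4 root markers, the root beta-glucosidase PYK10, read 3.42 and 3.56 in Atdi19-3 and 3.21 on both wild-type arrays (log2 fold change at least 0.28, limma adjusted p = 0.19). The labelled tissue could therefore not be checked against those lists. The level of AtDi19-3 itself was not analysed here as a check of the genotype labels.

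Among the 33 members, transcripts of atpB, petB, psbJ and psbE rose in Atdi19-3 and none fell by the test. The test was limma across 22746 probe sets, and a probe set was called at a Benjamini-Hochberg adjusted p under 0.05. It called 3.16% of all probe sets higher and 0.602% lower in Atdi19-3, against 4 and 0 of the 33 members, of which 13 had an unadjusted p under 0.05 (18.5% of all probe sets did). After quantile normalization of the deposited values, the calls over all probe sets were 270 higher (1.19%) and 158 lower (0.695%) in place of 718 and 137, and the members called higher were atpB and petB. Other fits called 4 of 33 members higher with a mean-variance trend (2.5% of all probe sets) and 11 of 22 among probe sets with a mean over 3 (34.5%), and centring on the spike-in probe sets made all 33 higher (100.0%). The filter on the mean let atpH, psaJ, psbB, psbC, psbK and psbL in through their Atdi19-3 values. All of these but psaJ and psbB are among those 11, so that count is partly set by the filter. Without wild type replicate 1, 2 members were higher (3.18%), and without wild type replicate 2, 4 were higher (3.9%) and 2 lower (12.2%). Leaving out an Atdi19-3 array, whichever it was, left 0 calls in either direction among all probe sets (0.0%, limma). The members had a median log2 fold change of 0.26, against 0.00 over all probe sets, and a range from -0.31 for atpI to 5.87 for atpB. Groups did not overlap, with Atdi19-3 higher, for 18 members (28.5% of all probe sets), and with Atdi19-3 lower for 3 (10.4%). At the thresholds the study applied, more than a doubling or a halving with an unadjusted p up to 0.05, 11 members were higher (6.34% of all probe sets) and 0 were lower (0.365%). These counts use the limma p-values given here and are not the study's own calls, which were not compared. Of the 33 members, 22 had a mean over 3 on the 4 arrays, against 6894 of 22746, and 654 of those 6894 were called higher. Over those 6894 the median log2 fold change was 0.44, and 4439 did not overlap, with Atdi19-3 higher. The 22 members had a median of 1.07, and 16 of them did not overlap, with Atdi19-3 higher. Those 16 include atpH, psaJ, psbB, psbC, psbK and psbL, so the filter partly sets this median and this count too. Under 3 on all 4 arrays were 12747 of the 22746 probe sets and 8 of the 33 members.

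**Figure D1:**
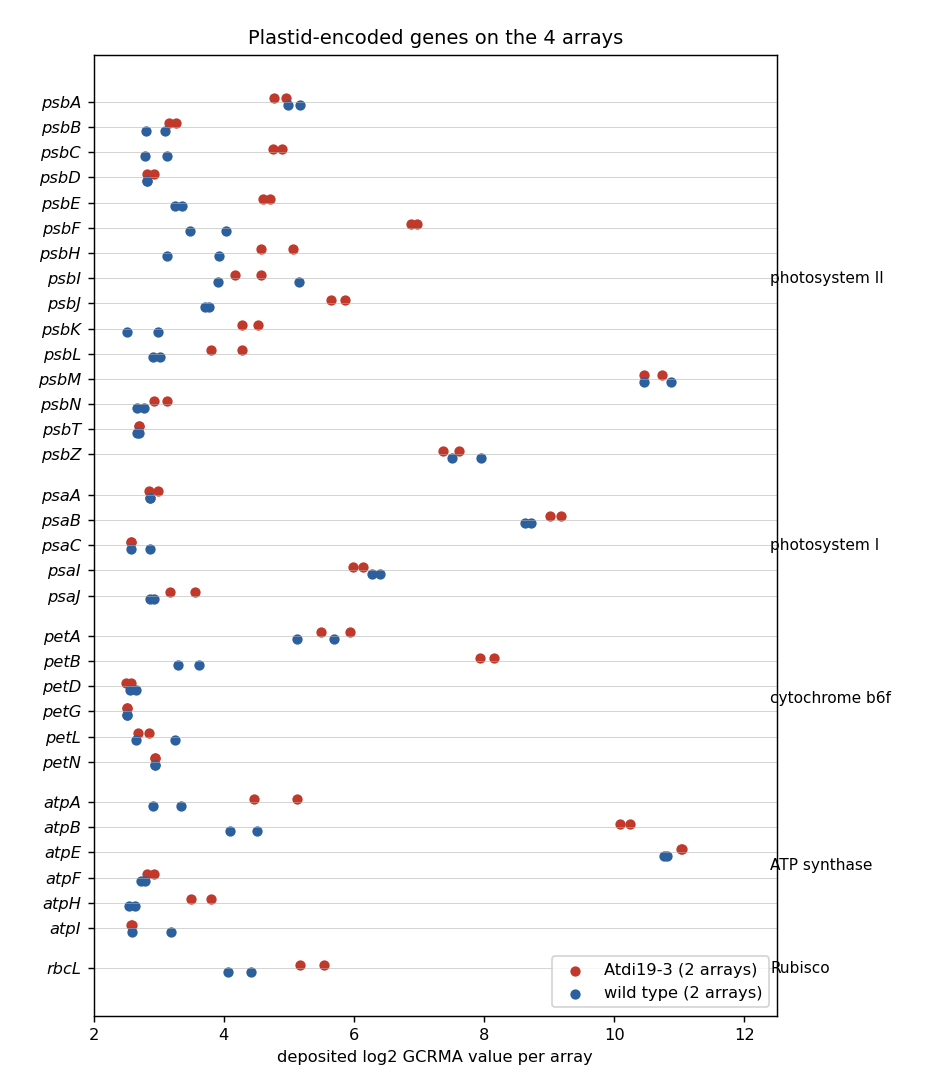
Deposited log2 GCRMA value (horizontal axis) of each of the 33 plastid-encoded genes on the 2 Atdi19-3 arrays (red) and the 2 wild-type arrays (blue), grouped by complex. The red points of atpB, at 10.09 and 10.25, lie far above the blue points at 4.09 and 4.51, whereas the points of psbM, atpE and psbZ lie close together at high values.

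In photosystem II, 2 of 15 members were called higher and none lower, against 3.16% and 0.602% of all probe sets. Both lie in the operon that encodes cytochrome b559, the heme protein beside the reaction centre. The psbE transcript (probe set 244964_at), for the alpha subunit of this cytochrome, read 4.72 and 4.61 in Atdi19-3 and 3.25 and 3.37 in the wild type. The Atdi19-3 values lay above both wild-type values, and the log2 fold change was 1.36 (standard error 0.07, limma adjusted p = 0.039). The psbJ transcript (245021_at), for a small subunit encoded 2 genes downstream of psbF, read 5.86 and 5.65 in Atdi19-3 and 3.71 and 3.78 in the wild type. It was 4.01-fold higher (log2 fold change 2.01, standard error 0.10, limma adjusted p = 0.036), and its SD was 0.15 in Atdi19-3 and 0.04 in the wild type (n = 2 arrays each). After quantile normalization, psbE had a log2 fold change of 0.73 (limma adjusted p = 0.062) and psbJ of 1.16 (limma adjusted p = 0.067), so both calls ended there. Neither gene was called with any 1 of the 4 arrays left out (limma adjusted p = 0.077 to 0.18 for psbE and 0.085 to 0.11 for psbJ).

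The largest difference in photosystem II belonged to psbF, which encodes the beta subunit of cytochrome b559 and did not pass the test. It read 6.88 and 6.97 in Atdi19-3 and 3.48 and 4.03 in the wild type, a log2 fold change of 3.17 (standard error 0.25, limma adjusted p = 0.058). The SD was 0.06 in Atdi19-3 and 0.39 in the wild type (n = 2 arrays each). The log2 fold change of psbF was 2.89 without wild type replicate 1 and 3.44 without wild type replicate 2. Unlike the fit of all 4 arrays, both of those fits, with 1 wild-type array left, called psbF higher. Its log2 fold change was 3.21 without Atdi19-3 replicate 1 and 3.12 without Atdi19-3 replicate 2, and neither of these fits called it. The psbL transcript, for a small subunit encoded between psbF and psbJ, read 3.80 and 4.29 in Atdi19-3 and 2.91 and 3.02 in the wild type, with a log2 fold change of at least 1.08 (limma adjusted p = 0.18). The lowest value of the arrays is 2.49, and a change is given as a lower bound if the genotype with the lower mean had a value under 3 or identical values on its arrays. This criterion was chosen after the values were seen.

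The inner antenna proteins, which carry chlorophyll next to the reaction centre, had unequal values. The psbC transcript, for CP43, read 4.76 and 4.90 in Atdi19-3 and 3.13 and 2.78 in the wild type, and its log2 fold change of at least 1.87 missed the threshold (standard error 0.17, limma adjusted p = 0.066). The psbB transcript, for CP47, read 3.16 and 3.27 in Atdi19-3 and 2.80 and 3.10 in the wild type (log2 fold change at least 0.26, limma adjusted p = 0.58). The D1 and D2 proteins of the reaction centre are encoded by psbA and psbD. The D1 gene psbA read 4.77 and 4.96 in Atdi19-3 and 4.99 and 5.18 in the wild type (log2 fold change -0.22, standard error 0.12, limma adjusted p = 0.58), and after quantile normalization the difference was -1.09 (limma adjusted p = 0.069). The D2 gene psbD read 2.82 and 2.93 in Atdi19-3 and 2.82 on both wild-type arrays, near the bottom of the scale, where a difference was not detectable.

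Among the other subunits of photosystem II, psbK read 4.52 and 4.28 in Atdi19-3 and 2.52 and 2.99 in the wild type, a log2 fold change of at least 1.65 (limma adjusted p = 0.12). The phosphoprotein gene psbH read 4.56 and 5.07 in Atdi19-3 and 3.12 and 3.93 in the wild type (log2 fold change 1.29, standard error 0.43, limma adjusted p = 0.34). For both genes the Atdi19-3 values were above the wild-type values. The SD of psbH was 0.36 in Atdi19-3 and 0.57 in the wild type (n = 2 arrays each). The small subunit gene psbM read 10.46 and 10.73 in Atdi19-3 and 10.46 and 10.87 in the wild type, and psbZ read 7.37 and 7.62 in Atdi19-3 and 7.51 and 7.95 in the wild type. Values of the genotypes overlapped for both, with log2 fold changes of -0.07 for psbM (limma adjusted p = 0.95) and -0.24 for psbZ (limma adjusted p = 0.59), against -0.18 for psbM and -0.98 for psbZ after quantile normalization. The psbI values overlapped too, at 4.18 and 4.57 in Atdi19-3 and 5.15 and 3.91 in the wild type, so that the direction of psbI turned when 1 array was left out. The assembly factor gene psbN, transcribed from the strand opposite the psbB operon, read 3.12 and 2.93 in Atdi19-3 and 2.66 and 2.78 in the wild type (limma adjusted p = 0.35). The psbT transcript lay between 2.67 and 2.69 on all 4 arrays.

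In photosystem I no member passed the test (limma, 0 of 5, against 3.16% higher and 0.602% lower over all probe sets). An unadjusted p under 0.05 was reached by 1 member (18.5% of all probe sets), and log2 fold changes ran from -0.28 to 0.47. The core protein gene psaB read 9.18 and 9.02 in Atdi19-3 and 8.71 and 8.63 in the wild type, a log2 fold change of 0.42 (standard error 0.08, limma adjusted p = 0.17). Its values did not overlap between the genotypes, yet quantile normalization turned the difference to -0.09. The small subunit gene psaI read 5.98 and 6.14 in Atdi19-3 and 6.27 and 6.40 in the wild type (log2 fold change -0.28, standard error 0.09, limma adjusted p = 0.34), which quantile normalization moved to -1.13 (limma adjusted p = 0.063). The small subunit gene psaJ read 3.56 and 3.17 in Atdi19-3 and 2.92 and 2.87 in the wild type (log2 fold change at least 0.47, limma adjusted p = 0.40). The transcripts of psaA, which pairs with PsaB around P700, and of psaC, which holds the terminal iron-sulphur clusters, were under 3 on every array.

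In the cytochrome b6f complex, which passes electrons from plastoquinone to plastocyanin, 1 of 6 members was called higher (3.16% of all probe sets). The petB transcript (244976_at), for cytochrome b6, read 8.15 and 7.93 in Atdi19-3 and 3.30 and 3.62 in the wild type. It was 24.0-fold higher, at 8.04 ± 0.16 against 3.46 ± 0.23 (SD, n = 2 arrays each), and the log2 fold change was 4.58 (standard error 0.18, limma adjusted p = 0.030). Its increase ranked 13 among the 22746 probe sets. It was still called after quantile normalization (3.97, limma adjusted p = 0.040), and it missed the threshold without wild type replicate 1 (4.42, limma adjusted p = 0.054) and without either Atdi19-3 array (4.47 and 4.70, limma adjusted p = 0.15 and 0.14).

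Of the other members of this complex, only petA was well above the lowest values. The cytochrome f gene petA read 5.94 and 5.50 in Atdi19-3 and 5.13 and 5.70 in the wild type, with overlapping values and a log2 fold change of 0.30 (standard error 0.32, limma adjusted p = 0.61) that quantile normalization turned to -0.61. The subunit IV gene petD read 2.57 and 2.50 in Atdi19-3 and 2.57 and 2.66 in the wild type. The small subunit gene petL read 2.68 and 2.86 in Atdi19-3 and 3.26 and 2.66 in the wild type (log2 fold change -0.19 or further from 0, limma adjusted p = 0.74). The small subunit genes petG and petN held 1 value on all 4 arrays, 2.52 for petG and 2.94 for petN, so no level was measured above the background of these probe sets.

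The ATP synthase held the largest change of the set. The atpB transcript (245014_at), for the catalytic beta subunit of the CF1 head, read 10.09 and 10.25 in Atdi19-3 and 4.09 and 4.51 in the wild type. It was 58.4-fold higher, at 10.17 ± 0.11 against 4.30 ± 0.29 (SD, n = 2 arrays each), and the log2 fold change was 5.87 (standard error 0.20, limma adjusted p = 0.028). This was rank 4 of the increases among 22746 probe sets. It stayed called after quantile normalization (5.13, limma adjusted p = 0.030) and without either wild-type array (5.66 and 6.08, limma adjusted p = 0.031 and 0.028), and was not called without either Atdi19-3 array (5.95 and 5.79, limma adjusted p = 0.15 and 0.14).

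Other subunits of the CF1 head showed smaller differences. The alpha subunit gene atpA read 4.47 and 5.12 in Atdi19-3 and 3.34 and 2.91 in the wild type, a log2 fold change of at least 1.67 (standard error 0.35, limma adjusted p = 0.18). The epsilon subunit gene atpE read 11.02 and 11.03 in Atdi19-3 and 10.77 and 10.81 in the wild type. This difference of 0.24 was larger than the spread between replicates of either genotype and missed the threshold over all probe sets (standard error 0.02, limma adjusted p = 0.063). The fit without wild type replicate 2, with 1 wild-type array left, called atpE higher. In the membrane part CFo, the ring subunit gene atpH read 3.81 and 3.50 in Atdi19-3 and 2.54 and 2.63 in the wild type (log2 fold change at least 1.07, limma adjusted p = 0.11). The CFo genes atpF and atpI stayed near the lowest values, with log2 fold changes of at least 0.12 for atpF (limma adjusted p = 0.55) and of -0.31 or further from 0 for atpI (standard error 0.26, limma adjusted p = 0.58). For atpI that difference came from wild type replicate 1 at 3.19, since the other arrays read 2.57 to 2.60.

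The large subunit gene of the carbon-fixing enzyme Rubisco, rbcL, is transcribed from the strand opposite atpB next to it. It read 5.54 and 5.18 in Atdi19-3 and 4.07 and 4.42 in the wild type, a log2 fold change of 1.11 (standard error 0.22, limma adjusted p = 0.18) that was 0.21 after quantile normalization (limma adjusted p = 0.60). Values of the genotypes did not overlap, and the SD was 0.26 in Atdi19-3 and 0.24 in the wild type (n = 2 arrays each).

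**Figure D2:**
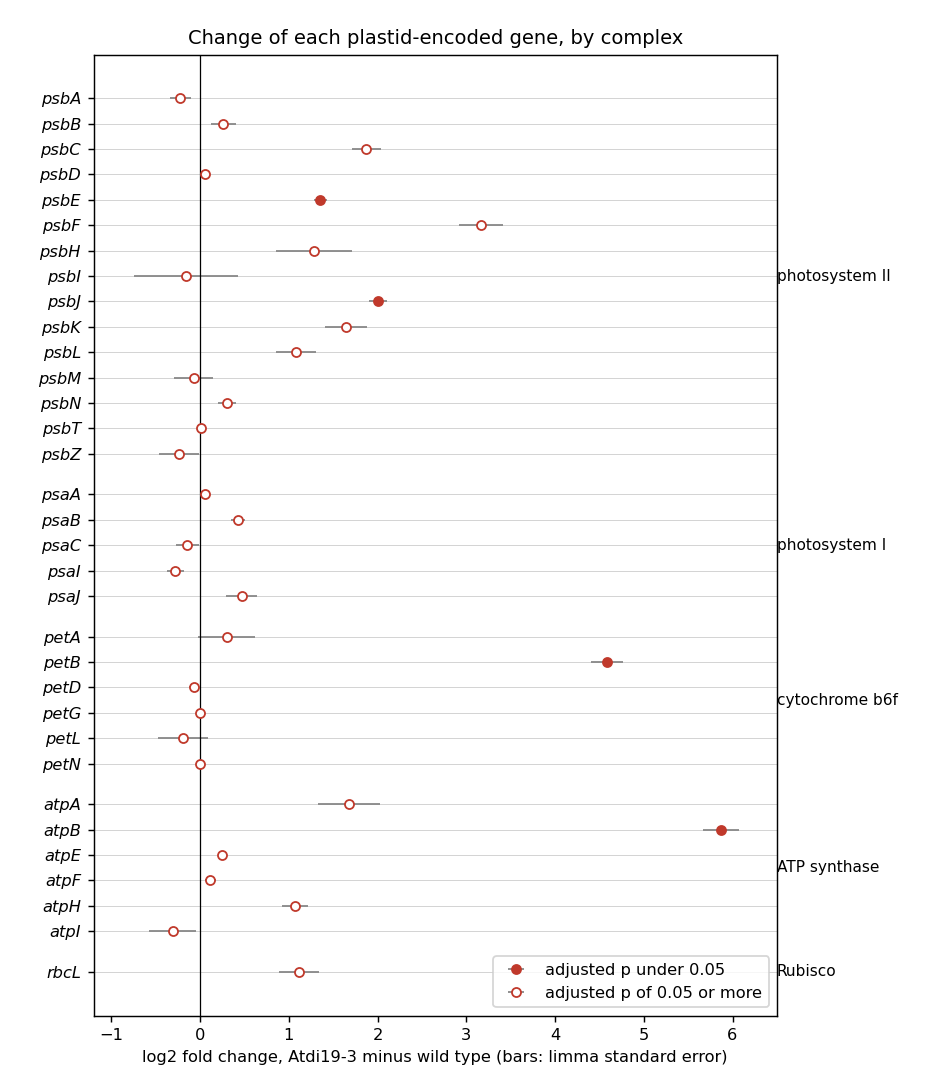
Log2 fold change, Atdi19-3 minus wild type (horizontal axis, bars show the limma standard error), of the 33 plastid-encoded genes by complex, with filled points for an adjusted p under 0.05. The 4 filled points are atpB at 5.87, petB at 4.58, psbJ at 2.01 and psbE at 1.36, and no point lies below -0.31.

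Members with a large change were dim in the wild type. The 12 members with a log2 fold change over 1 (7.07% of all probe sets had one) read 3.50 to 10.25 in Atdi19-3 and 2.52 to 4.51 in the wild type, and for 5 of them the change is a lower bound. The 6 members that read over 5 on both wild-type arrays, atpE, psbM, psaB, psbZ, psaI and petA, had log2 fold changes between -0.28 and 0.42, and 0 of them were called by limma (2 at an unadjusted p under 0.05). After quantile normalization these 6 ran from -1.13 for psaI to 0.15 for atpE. Among all 768 probe sets that read over 5 on both wild-type arrays, 66 were called higher and 35 lower, and 170 had a log2 fold change over 1. This split uses the wild-type values that enter the fold change, so it describes the arrays and was not tested. At the other end, 8 members (atpF, petD, petG, petN, psaA, psaC, psbD and psbT) read under 3 on every array, where a change was not detectable.

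Neighbouring genes of 1 operon were then compared by their changes. The 25 members that lie in 8 operons gave 17 pairs of neighbours, and for 11 pairs the log2 fold changes differed by over 1 in size. Among these 11, the pairs with atpF, psbT, petD or psbD hold a gene that read under 3 on every array. Others hold a change that is a bound, so the count is partly set by the lowest values. No share over other pairs of probe sets was computed beside the neighbour differences. Standard errors of these differences are over 2 arrays per genotype, and an exact permutation test of 2 against 2 arrays cannot give a two-sided p under 0.333. That value was reached by 16 pairs (0.354 after Benjamini-Hochberg adjustment over the 17), so this test could not place any difference under 0.05, and the differences are given with their standard errors and no further test.

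In the atpB-atpE operon, whose reading frames overlap, the change of atpB exceeded that of atpE by 5.63 (standard error 0.20). In the psbB operon, the log2 fold change was at least 0.26 for psbB, 0.01 for psbT, 1.29 for psbH, 4.58 for petB and -0.07 for petD, in the order of transcription. The change of psbH minus that of petB was -3.30 (standard error 0.44), and petB exceeded its downstream neighbour petD by 4.66 (standard error 0.14). Only petB of these 5 genes was called, and for psbT and petD all arrays read under 3, which bounds what could be seen there.

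The psbE operon was the only one of the 8 in which each gene had a log2 fold change over 1. After quantile normalization it was not, with psbE at 0.73 and psbL at 0.72. The values as deposited were 1.36 for psbE, 3.17 for psbF, 1.08 (a lower bound) for psbL and 2.01 for psbJ. The change of psbE minus that of psbF was -1.81 (standard error 0.24), and psbF exceeded psbL by 2.09 (standard error 0.30). In the psbD operon, psbD minus psbC gave -1.82 (standard error 0.17), and psbC exceeded psbZ by 2.11 (standard error 0.40). There psbD read under 3 on every array and the change of psbC is a lower bound, which limits both differences. The psbK and psbI transcripts differed in their change by 1.80 (psbK minus psbI, standard error 0.91), and the wild-type values of psbI stood 1.24 apart. The change of psbK is a lower bound.

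In the atpI operon, changes alternated along the transcript, at -0.31 for atpI, 1.07 for atpH, 0.12 for atpF and 1.67 for atpA. The 3 neighbour differences, upstream minus downstream, were -1.38, 0.95 and -1.56, with standard errors of 0.38, 0.10 and 0.45. The changes of all 4 genes are bounds. The change of psaA minus that of psaB was -0.36 (standard error 0.15) and turned to 0.10 after quantile normalization. In the petL operon the differences were -0.19 for petL minus petG and -0.47 for petG minus psaJ. Both psaA and petG read under 3 on every array, petG at a single value, and the changes of petL and psaJ are bounds. Quantile normalization moved 10 of the 17 differences by more than their standard error.

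**Figure D3:**
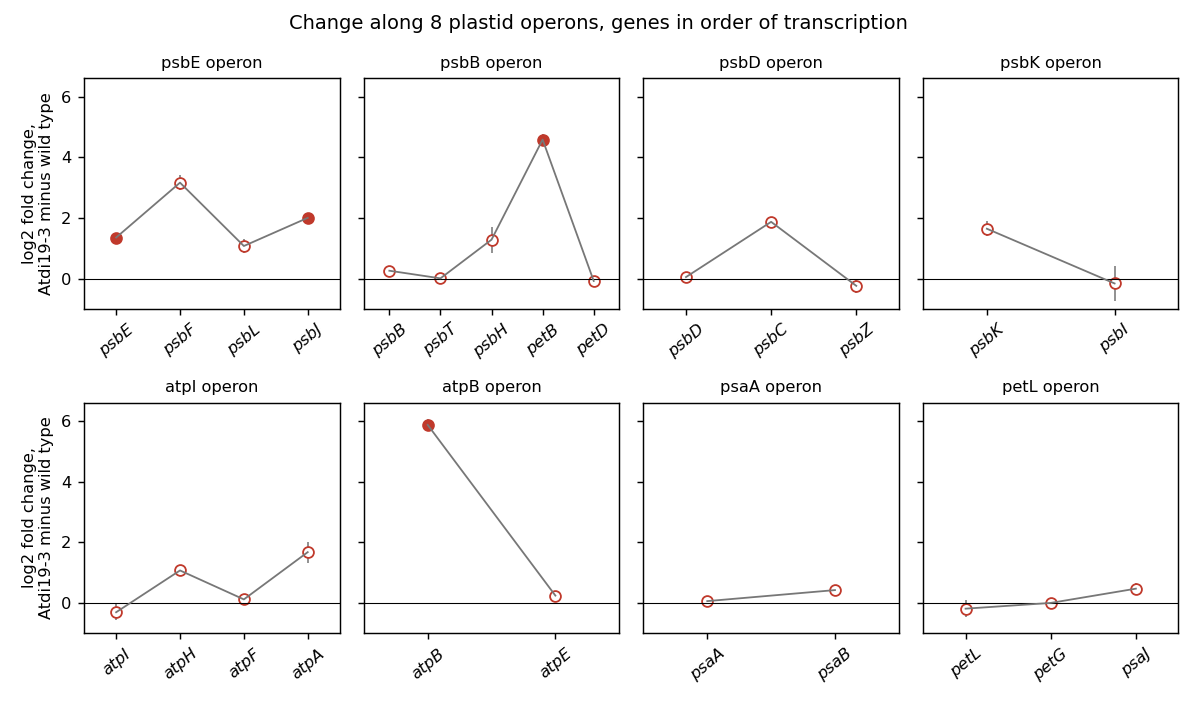
Log2 fold change, Atdi19-3 minus wild type (vertical axis, bars show the limma standard error), along 8 plastid operons with genes in the order of transcription and filled points for an adjusted p under 0.05. In the psbB operon petB stands at 4.58 between psbH at 1.29 and petD at -0.07, and in the atpB operon the value drops to 0.24 at atpE.

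The other plastid-encoded genes give a background from the same organelle. A single-gene probe set was found for 36 such genes. The 33 members had 4 called higher, 0 called lower and a median log2 fold change of 0.26. Of the 36, 2 were called higher and 2 lower in Atdi19-3 (3.16% and 0.602% of all probe sets), with a median of 0.02. The called ones were ndhI, of the NADH dehydrogenase-like complex (9.79 and 9.79 in Atdi19-3, 7.15 and 7.06 in the wild type, log2 fold change 2.68, limma adjusted p = 0.016), and rpl16, of the large ribosomal subunit (5.41 and 5.60 in Atdi19-3, 4.22 and 4.19 in the wild type, 1.30, limma adjusted p = 0.049), both higher. The lower ones were rps4, of the small ribosomal subunit (9.06 and 8.93 in Atdi19-3, 10.39 and 10.47 in the wild type, -1.44, limma adjusted p = 0.033), and ccsA, for cytochrome c maturation (7.59 and 7.72 in Atdi19-3, 8.70 and 8.64 in the wild type, -1.01, limma adjusted p = 0.048). After quantile normalization ndhI (2.07) and ccsA (-1.66) were still called, and rpl16 (0.37, limma adjusted p = 0.31) and rps4 (-1.74, limma adjusted p = 0.054) were not. Whether the sets differ was not tested.

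Nuclear partners of the same complexes were named for few probe sets. Of the 35 nuclear genes listed for the photosystems, cytochrome b6f, plastocyanin, ATP synthase and Rubisco, 7 had a single-gene probe set. Limma called 0 of these 7 (3.16% higher and 0.602% lower over all probe sets). An unadjusted p under 0.05 was reached by 4 (18.5% of all probe sets), and the median log2 fold change of the 7 was 0.20. PSAN, a lumenal subunit of photosystem I, read 8.94 and 9.03 in Atdi19-3 and 8.21 and 8.11 in the wild type (0.82, limma adjusted p = 0.054). PETM, a small subunit of cytochrome b6f, read 9.51 and 9.48 in Atdi19-3 and 9.69 and 9.70 in the wild type (-0.20, limma adjusted p = 0.053). These 2 genes had the smallest p-values of the list. After quantile normalization the values were 0.29 for PSAN and -0.78 for PETM. The largest difference of the list was that of PSBY, a small protein of photosystem II, at 8.32 and 8.06 in Atdi19-3 and 6.85 and 6.58 in the wild type (1.47, limma adjusted p = 0.089), which was 0.76 after quantile normalization.

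Of 8 sigma factors and phage-type polymerases listed, only RPOTMP had a single-gene probe set, at 2.57 and 2.59 in Atdi19-3 and 2.59 and 2.70 in the wild type. Of 12 factors for the stability and processing of plastid RNA, CRP1 was the only one measured under its name. CRP1, a pentatricopeptide repeat protein known in maize for its part in petD RNA processing and in the translation of petA, read 3.53 on both Atdi19-3 arrays and 3.21 and 3.23 in the wild type. It was called, and a log2 difference of 0.31 (standard error 0.01, limma adjusted p = 0.027), and quantile normalization turned this value to -0.07.

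**Figure D4:**
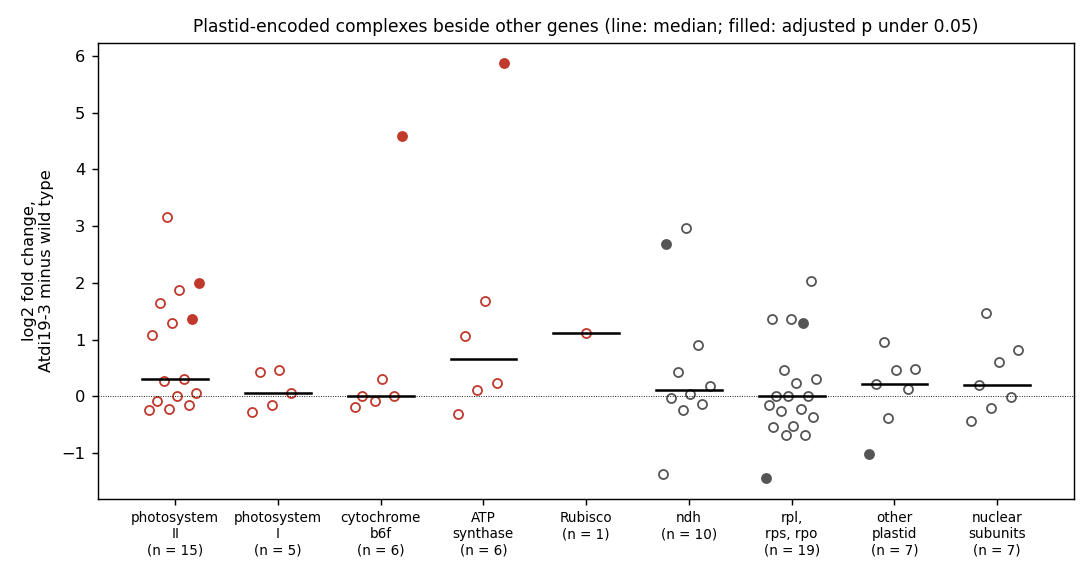
Log2 fold change, Atdi19-3 minus wild type (vertical axis), of the plastid-encoded genes by complex (red) beside other plastid-encoded genes and the nuclear subunits of the same complexes (grey), with a line for each median and filled points for an adjusted p under 0.05. Medians run from 0.00 for cytochrome b6f to 0.66 for the ATP synthase and 1.11 for rbcL alone, and atpB and petB stand above the other points.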

How the data were processed

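The 4 ATH1 arrays were used as deposited, 2 of Atdi19-3 and 2 of the wild type. The authors deposited log2 values, and the submitters' processing notes list GCRMA and R 3.4.0. The version of GCRMA and the way the arrays were normalized together are not given in the sources used here, and probe intensities were not analysed here. In R 4.3.3 with limma 3.58.1, 64 control probe sets were set aside and the other 22746 were fitted with lmFit and eBayes, without covariate or filter, and p-values were adjusted by Benjamini-Hochberg over all of them. The prior was worth 0.48 degrees of freedom, and the fit was tested on simulated data. The platform annotation names 1 gene for 13513 tested probe sets, several for 503 and lists none for 8730, and 13436 matched RefSeq TAIR10.1 by gene ID. No coordinates are given, because the values carry no genome build. Members, operons and lists were chosen with earlier results of these data known. Any member could be named, and called members and the extremes of each complex carry full statistics. For each list, called genes are named, or else the pair with the smallest p. The alternatives were quantile normalization, spike-in centring, a filter on the mean, a variance trend, a replicate block and leaving out each array. With 2 arrays per genotype the precision is limited.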

Additional observations from a re-analysis of the deposited data

Results flagged for a closer look

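Of the 64 control probe sets outside the comparison, 21 read higher and 21 lower on both Atdi19-3 arrays than on both wild-type arrays. Those given here were chosen among the higher ones after their values were seen. The 25S rRNA control read 5.22 and 5.62 in Atdi19-3 and 2.54 and 3.02 in the wild type (difference 2.63 in log2). The newer 5' control probe sets differed by 3.9 for GAPDH, by 4.17 for ubiquitin and by 2.93 for actin. Their part in the results for the plastid-encoded genes was not tested.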

How the results depend on the processing

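The number of members called higher, 4 in the fit as reported, was 2 after quantile normalization and 33 after spike-in centring. It was 11 with only the 22 members whose mean was over 3, where 34.5% of the 6894 probe sets fitted were called higher. Of those 22, atpH, psaJ, psbB, psbC, psbK and psbL passed that filter only through their Atdi19-3 values, and psaJ and psbB were not called. The number was 0 with the replicate block, 11 at the thresholds of the study and 4 with a mean-variance trend. Leaving out 1 array gave 0 to 4 members called higher and 0 to 2 called lower (atpI and psaC without wild type replicate 2). With Atdi19-3 replicate 1 or 2 left out, limma called 0 of all probe sets (3768 and 3933 at an unadjusted p under 0.05, of which 12 and 11 were members), and in each such fit the lone array is assumed to vary like the other genotype. The replicate block also called 0 of all probe sets (3638 at an unadjusted p under 0.05, of which 13 were members, with atpB at an adjusted p of 0.14). It leaves 1 residual degree of freedom. The replicate differences of the genotypes had a correlation of 0.017 over all probe sets. The labels give only a replicate number, so whether samples of the same number were handled together is not known. The median log2 fold change of the members, 0.26, was 0.11 after quantile normalization and 3.75 after spike-in centring. It was 1.07 with the filter, against 0.44 over all probe sets fitted there, and 0.21 to 0.37 with 1 array left out. The filter uses the Atdi19-3 values, so it partly sets that 1.07. Quantile normalization turned petA to -0.61 and psaB to -0.088. Spike-in centring moved all probe sets by 3.49 and turned atpI to 3.18, petD to 3.42, petL to 3.30, psaC to 3.34, psaI to 3.21, psbA to 3.27, psbI to 3.33, psbM to 3.42 and psbZ to 3.25. With 1 array left out, log2 fold changes changed sign for petL (-0.49 to 0.11), psaA (-0.003 to 0.12), psbI (-0.78 to 0.47) and psbM (-0.28 to 0.13). The cause of these changes was not tested.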

Other observations

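Genes that are no members but lie beside them were looked at after their values had been seen. The rpl33 transcript, for a ribosomal protein encoded downstream of psaJ, read 5.10 and 5.63 in Atdi19-3 and 3.21 and 3.43 in the wild type (log2 fold change 2.04, limma adjusted p = 0.10). Its next neighbour rps18 read 3.74 and 3.75 in Atdi19-3 and 3.89 and 4.04 in the wild type (-0.22, limma adjusted p = 0.30). Between psaI and petA, cemA, for an envelope membrane protein, read 3.52 and 4.13 in Atdi19-3 and 3.02 and 2.69 in the wild type (at least 0.97, limma adjusted p = 0.33), and ycf4, for a photosystem I assembly factor, differed by at least 0.14 in log2 (limma adjusted p = 0.58). The rps14 transcript, encoded after psaB, read 2.67 and 2.60 in Atdi19-3 and 3.55 and 3.07 in the wild type (-0.68 or further from 0, limma adjusted p = 0.33). None of these 5 passed the test on the values as deposited. The rps18 transcript was called lower after quantile normalization (-0.87, limma adjusted p = 0.036), as were 0.695% of all probe sets. It was not called with the filter on the mean or with the replicate block (limma adjusted p = 0.24 and 0.42). Its log2 fold change was -0.29 and -0.15 without wild type replicate 1 and 2, and -0.22 without either Atdi19-3 array. Each fit that left out 1 wild-type array, with 1 array left for that genotype, also called rps18 lower.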
